A study of Mus musculus with 22 samples.

Results

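Acute phase proteins are secreted proteins whose production changes with inflammation, and 6 genes that encode them were followed through 19 libraries of mouse cardiac fibroblasts and 3 libraries of cardiomyocytes: Saa3, Lcn2, Hp, Serpina3n, Ptx3 and Cp. They are 6 of the 23359 genes in the deposited expression table. They were chosen by name with their expression in these libraries already known, and the differences between groups were part of what chose them, so their values are a description and carry no test. The mice were male, wild type C57BL/6 animals of postnatal weeks 10 to 14, and no group carried a transgene per the labels. The fibroblast groups were 5 days of MI (n = 2), 3 and 10 days of TAC (n = 3 each), 4 and 10 days of swimming (n = 3 each), a sham procedure at 3 days (n = 2) and sedentary mice (n = 3). Cardiomyocytes came from sedentary mice (n = 3). The labels give MI and TAC as abbreviations only; they are read here as myocardial infarction, the death of heart muscle after loss of its blood supply, and transverse aortic constriction, a band on the aorta that loads the left ventricle with pressure. The labels do not state whether libraries of a group came from separate mice, so the tests speak to variation among these libraries alone, and that variation may be technical.

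The acute phase response is best known from the liver, where IL-6 acting through gp130, JAK kinases and STAT3, and IL-1 and TNF acting through NF-kappaB and C/EBP factors, switch on genes for plasma proteins. Several of these genes are also used outside the liver. Saa3 is the serum amyloid A of mouse tissues, made mainly by cells other than hepatocytes. Lcn2 encodes lipocalin-2, which binds bacterial siderophores and so withholds iron. Hp encodes haptoglobin, which captures free haemoglobin, and Cp encodes ceruloplasmin, a copper ferroxidase that helps iron leave cells. Ptx3 encodes the long pentraxin PTX3, a soluble pattern recognition molecule made locally by fibroblasts, endothelial cells and myeloid cells. Serpina3n encodes a secreted serine protease inhibitor of the antichymotrypsin family.

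Promoter windows are shown for 3 of the genes because Saa3 and Lcn2 varied together across the libraries while Ptx3 followed another pattern. Each is the 250 bases before the RefSeq start of the gene, GRCm38.p6, 5′ to 3′ on the gene's own strand, and capitals mark a match to the C/EBP motif TTGCNNAA on either strand.
Saa3, chr7:46715677-46715926, minus strand: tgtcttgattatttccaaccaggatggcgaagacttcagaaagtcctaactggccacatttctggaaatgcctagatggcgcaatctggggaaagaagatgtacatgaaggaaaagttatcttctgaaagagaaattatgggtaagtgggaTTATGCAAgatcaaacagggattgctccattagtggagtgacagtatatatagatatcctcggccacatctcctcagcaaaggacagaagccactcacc
Lcn2, chr2:32387740-32387989, minus strand: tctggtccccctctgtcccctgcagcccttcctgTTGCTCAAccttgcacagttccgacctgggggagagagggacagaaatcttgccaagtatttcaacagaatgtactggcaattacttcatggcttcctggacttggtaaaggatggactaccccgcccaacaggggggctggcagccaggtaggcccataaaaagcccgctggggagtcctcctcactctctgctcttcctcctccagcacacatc
Ptx3, chr3:66219637-66219886, plus strand: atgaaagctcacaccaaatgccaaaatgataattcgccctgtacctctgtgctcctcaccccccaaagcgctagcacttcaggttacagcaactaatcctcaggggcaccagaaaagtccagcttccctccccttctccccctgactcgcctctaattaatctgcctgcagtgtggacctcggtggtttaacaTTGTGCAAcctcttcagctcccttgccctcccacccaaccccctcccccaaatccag
The match lay at bases -99 to -92 in Saa3, -216 to -209 in Lcn2 and -57 to -50 in Ptx3, counted back from the start. A C/EBP match occurs in 9.56% of all 32851 promoter windows of this length in the table. Of the other motifs searched on both strands, the NF-kappaB motif (GGGA, any 2 bases, then TTCC; 1.21% of windows), the STAT motif TTCNNNGAA (7.02%) and the AP-1 motif TGANTCA (6.75%), none had a match in these 3 windows. The Serpina3n window held none of the 4 motifs. Cp has 2 windows, and the one at chr3:19956999-19957248 held a C/EBP match at -70 to -63 while the other held an AP-1 match. No match overlapped another. A match describes letters in the window and not a bound site.

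The authors' values are FPKM, fragment numbers scaled to transcript length and to the size of the library, so that levels of different genes may be compared per length. The values of a library summed to between 85128 and 205139 FPKM, and the number of reads behind them is unknown. Libraries differed in how FPKM depended on transcript length: each doubling of length went with a log2(FPKM + 1) lower by 0.18 to 0.31 in MI, sham and sedentary fibroblasts, and by 0.54 to 0.92 in TAC and swim fibroblasts and in cardiomyocytes. Short transcripts such as Saa3 (555 bases) and Lcn2 (915 bases) are therefore given below also with the length and GC trend removed, where that moves a value by over 1.5 times. Fibroblast markers (Pdgfra, Col1a1, Dcn and 7 others) summed to 973 to 3584 FPKM in the fibroblast libraries and to 122 to 288 FPKM in cardiomyocytes, and cardiomyocyte markers to 57.3 to 786 FPKM in the fibroblast libraries and to 16130 to 20578 FPKM in cardiomyocytes, as the labels have it. Macrophage and monocyte markers were also present in every fibroblast library, at a summed 637 to 2073 FPKM. Of 8 hepatocyte markers, Alb and Fgb were listed at 0 in all 19 fibroblast libraries, and only Ahsg reached 1 FPKM in any.

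The 6 genes fell into groups with different patterns (the plot of every library). Saa3, Lcn2, Hp and Serpina3n were highest in 3-day TAC or 5-day MI fibroblasts and low again in 10-day TAC fibroblasts. Ptx3 and Cp were highest in sham and sedentary fibroblasts and, among the fibroblast groups, lowest in 10-day TAC. Over the 19 fibroblast libraries, the Pearson r of log2(FPKM + 1) was 0.74 to 0.92 for the 6 pairs among Saa3, Lcn2, Hp and Serpina3n, 0.76 between Ptx3 and Cp, and -0.34 to 0.38 across these groups. These correlations include the differences between groups and are descriptions.

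**Figure D1:**
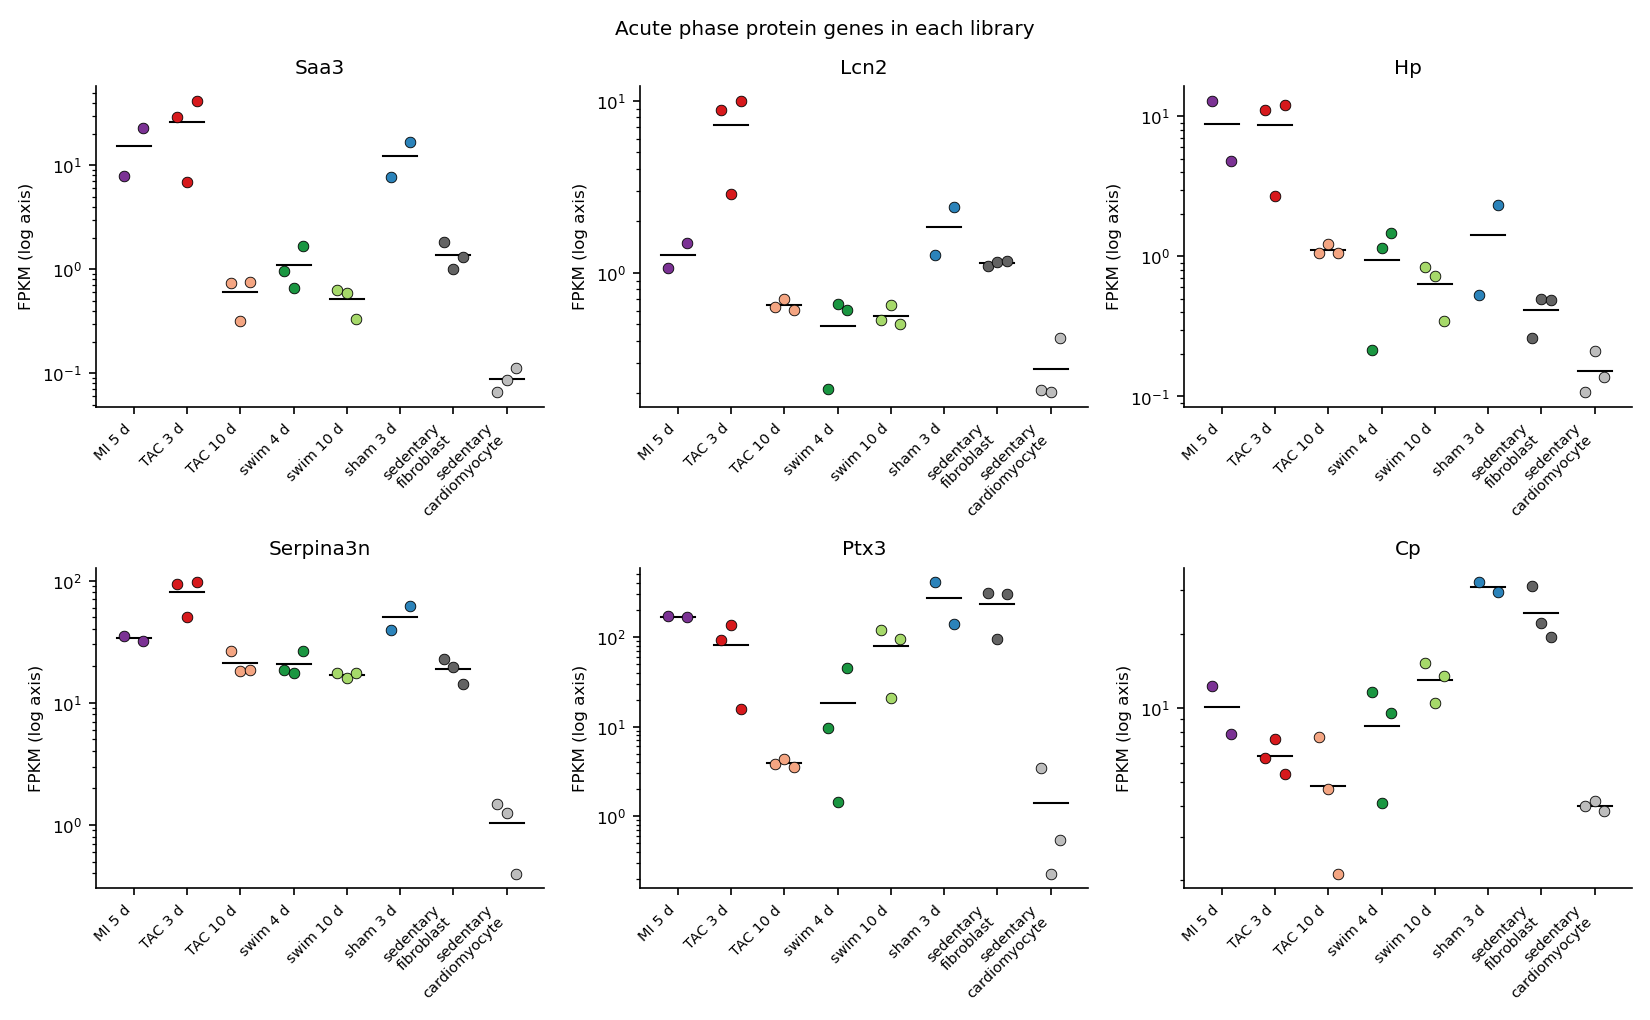
FPKM of the 6 genes in each of the 22 libraries, on a log axis. Points are libraries and lines are group means; Saa3 lies between 6.96 and 41.9 FPKM in the 3-day TAC libraries and at or below 0.754 FPKM in the 10-day TAC libraries, while Ptx3 lies between 95.8 and 408 FPKM in the sham and sedentary fibroblast libraries.

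Saa3 (chr7:46711998-46715676, mm10) had 29.1, 6.96 and 41.9 FPKM in 3-day TAC fibroblasts, 7.83 and 22.7 FPKM in MI fibroblasts and 7.73 and 16.7 FPKM in sham fibroblasts, against 1.83, 1.02 and 1.30 FPKM in sedentary fibroblasts. These 3 groups overlapped each other, and each lay wholly above the sedentary libraries. In 10-day TAC fibroblasts it had 0.742, 0.317 and 0.754 FPKM, all below the lowest sedentary library. Swimming gave 0.963, 0.666 and 1.69 FPKM at 4 days and 0.632, 0.588 and 0.330 FPKM at 10 days. In the order of group means, 3-day TAC (26.01 ± 17.7 FPKM, SD), MI (15.3 ± 10.5) and sham (12.2 ± 6.34) came first, followed by a gap to sedentary fibroblasts (1.38 ± 0.416); from there to 10-day swimming (0.517 ± 0.163) each group overlapped the next.

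Lcn2 (chr2:32384637-32387739) had 8.79, 2.87 and 10.0 FPKM in 3-day TAC fibroblasts, against 1.27 and 2.41 FPKM in sham fibroblasts and 1.09, 1.15 and 1.17 FPKM in sedentary fibroblasts. All 3-day TAC libraries lay above all other fibroblast libraries. MI fibroblasts had 1.06 and 1.48 FPKM and overlapped the sedentary libraries, which for Saa3 they did not. Lcn2 stood at 0.610 to 0.701 FPKM in 10-day TAC, 0.211 to 0.660 FPKM in 4-day swim and 0.504 to 0.648 FPKM in 10-day swim fibroblasts, each below every sedentary library.

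Hp (chr8:109575128-109579172) had 13.0 and 4.78 FPKM in MI fibroblasts and 11.2, 2.69 and 12.0 FPKM in 3-day TAC fibroblasts, against 0.526 and 2.34 FPKM in sham fibroblasts and 0.260, 0.496 and 0.491 FPKM in sedentary fibroblasts. MI and 3-day TAC overlapped, and both lay above every other fibroblast library. MI replicate 1 was the higher of the MI pair for Hp and the lower for Saa3. The remaining groups, 10-day TAC at 1.06 to 1.22 FPKM, 4-day swimming at 0.214 to 1.47 FPKM and 10-day swimming at 0.345 to 0.842 FPKM, overlapped sham fibroblasts.

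Serpina3n (chr12:104406708-104414329) was far more abundant per length, with 93.8, 49.98 and 97.1 FPKM in 3-day TAC fibroblasts and 35.2 and 32.02 FPKM in MI fibroblasts, against 39.6 and 61.5 FPKM in sham fibroblasts and 22.8, 19.4 and 14.1 FPKM in sedentary fibroblasts. The 3-day TAC and sham libraries overlapped and lay above all MI libraries, which lay above all sedentary ones. The 10-day TAC (18.3 to 26.2 FPKM), 4-day swim (17.5 to 26.5 FPKM) and 10-day swim (15.9 to 17.4 FPKM) libraries overlapped the sedentary libraries. The 10 other Serpina3 genes in the table, which are related genes of one family, had an r of 0.979 to 0.996 with Serpina3n over the 19 libraries. They reached at most 12.3 to 46.2 FPKM. Reads may be shared among these related genes, so the value of any single one is uncertain.

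Ptx3 (within the locus chr3:66053558-66296837, which the table shares with Veph1, itself at no more than 0.00426 FPKM) had 3.80, 4.33 and 3.52 FPKM in 10-day TAC fibroblasts, against 307, 95.8 and 304 FPKM in sedentary fibroblasts. In the sedentary libraries it ranked 24, 104 and 40 among the 23359 genes. It had 170 and 165 FPKM in MI fibroblasts and 93.2, 135 and 15.7 FPKM in 3-day TAC fibroblasts, against 408 and 140 FPKM in sham fibroblasts. Swimming gave 9.60, 1.45 and 44.5 FPKM at 4 days and 120, 20.7 and 95.3 FPKM at 10 days. The spread within groups was wide: the SD was 22.9 FPKM around a mean of 18.5 FPKM in 4-day swim fibroblasts, while MI (168 ± 3.55 FPKM) and 10-day TAC (3.88 ± 0.413 FPKM) were narrow.

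Cp (within the locus chr3:19957054-20035310, shared with Hps3, which had 0.347 to 0.739 FPKM in fibroblasts) had 6.28, 7.48 and 5.39 FPKM in 3-day TAC fibroblasts and 7.62, 4.70 and 2.13 FPKM in 10-day TAC fibroblasts, against 32.3 and 29.5 FPKM in sham fibroblasts and 31.1, 22.1 and 19.3 FPKM in sedentary fibroblasts. Every TAC, MI and swim library lay below every sham and sedentary library. MI fibroblasts had 12.3 and 7.81 FPKM, 4-day swim fibroblasts 11.6, 4.12 and 9.50 FPKM, and 10-day swim fibroblasts 15.2, 10.4 and 13.5 FPKM. By group mean, sham (30.9 ± 1.99 FPKM) and sedentary (24.2 ± 6.16 FPKM) fibroblasts overlapped and stood apart from all the others, among which each group overlapped the next in order.

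The first question of the design was what pressure load did at 3 days beyond the operation itself. Against sham, 3-day TAC libraries were all higher for Lcn2 and Hp and all lower for Ptx3 and Cp, 2 of 6 genes each way, where 38.6% of the 9425 genes tested were higher in this way and 34.2% lower. On the log2(FPKM + 1) scale, which understates the change of genes near 1 FPKM, the difference was 1.43 ± 0.31 (SE) for Lcn2, 1.89 ± 0.50 for Hp, -2.0 ± 1.13 for Ptx3 and -2.12 ± 0.38 for Cp. Saa3 (0.81 ± 0.55) and Serpina3n (0.63 ± 0.29) overlapped between the groups. With the length and GC trend removed, the differences were -0.27 for Saa3, 0.43 for Lcn2, 1.06 for Hp and -1.41 for Cp. Pseudocounts of 0.1 and 5 gave 2.55 and 1.01 for Hp, and a pseudocount of 5 gave 0.79 for Lcn2. Ptx3 was -1.08 without 3-day TAC replicate 3, -2.59 without replicate 2, and -1.23 and -2.77 without sham replicates 1 and 2. Fibroblast markers summed to 1087 to 1986 FPKM in 3-day TAC fibroblasts, against 2533 to 2899 FPKM in sham fibroblasts. This sum was lower in every library, as Ptx3 and Cp were. Of the 10 markers, however, 3 were called higher and 3 lower (limma, adjusted p under 0.05). Their part in the differences was not tested.

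The sham operation itself went with higher values of the first set of genes. Against sedentary fibroblasts, Saa3, Lcn2, Hp and Serpina3n were higher in both sham libraries than in all 3 sedentary libraries, 4 of 6 genes where 14.0% of all genes were. The log2 difference was 2.40 ± 0.55 for Saa3, a 5.26-fold difference on this scale, and 1.37 ± 0.29 for Serpina3n; it was 0.68 ± 0.50 for Hp and 0.38 ± 0.31 for Lcn2. Saa3 was 2.99 and 1.38 with pseudocounts of 0.1 and 5, and Hp 1.30 with a pseudocount of 0.1. Macrophage and monocyte markers were also higher in every library, at a summed 929 to 1977 FPKM in sham fibroblasts, against 637 to 847 FPKM in sedentary fibroblasts, and their part in the differences was not tested. Ptx3 (0.20 ± 1.13) and Cp (0.37 ± 0.38) overlapped. Over all genes, 0.0212% were called either way in this comparison (limma, Benjamini-Hochberg adjusted p under 0.05), which are 2 genes, with 647 at an unadjusted p under 0.05.

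Set against sedentary fibroblasts directly, 3-day TAC libraries were all higher for Saa3, Lcn2, Hp and Serpina3n and all lower for Cp, against 39.4% and 25.6% of all genes. The log2 difference was 3.20 ± 0.49 for Saa3, 1.81 ± 0.27 for Lcn2, 2.57 ± 0.44 for Hp, 2.0 ± 0.26 for Serpina3n and -1.75 ± 0.34 for Cp, with Ptx3 at -1.80 ± 1.01 and overlapping. With the length and GC trend removed Saa3 stood at 2.0, Lcn2 at 0.70 and Hp at 1.65. With pseudocounts of 0.1 and 5, Saa3 was 3.83 and 2.07 and Hp 3.85 and 1.24, and with the higher one Lcn2 was 0.94. Ptx3 was -0.88 without 3-day TAC replicate 3 and -2.39 without replicate 2. Sham and 3-day TAC are compared here with the same sedentary libraries.

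Between 3 and 10 days of TAC the first set was lower throughout. In 10-day TAC libraries Saa3, Lcn2, Hp, Serpina3n and Ptx3 were all below every 3-day TAC library, 5 of 6 genes where 16.1% of all genes were. The log2 difference was -3.77 ± 0.49 for Saa3, -2.18 ± 0.27 for Lcn2, -1.98 ± 0.44 for Hp, -1.84 ± 0.26 for Serpina3n and -3.62 ± 1.01 for Ptx3, while Cp overlapped at -0.45 ± 0.34. Removing the length and GC trend moved none of these by over 1.5 times, whereas pseudocounts of 0.1 and 5 gave -4.94 and -2.26 for Saa3, -3.11 and -1.06 for Lcn2 and -2.58 and -1.07 for Hp, and a pseudocount of 5 gave -2.89 for Ptx3. Ptx3 was -4.54 without 3-day TAC replicate 3 and -3.03 without replicate 2; without replicate 2 Saa3 was -4.50 and Hp -2.57. The neutrophil markers described further on summed to 3.69 to 7.89 FPKM in 10-day TAC fibroblasts, against 12.5 to 137 FPKM in 3-day TAC fibroblasts. Against sedentary fibroblasts, the 10-day TAC libraries were all lower for Saa3 (-0.57 ± 0.49), Lcn2 (-0.38 ± 0.27), Ptx3 (-5.42 ± 1.01) and Cp (-2.21 ± 0.34) and all higher for Hp (0.58 ± 0.44), where 25.8% of all genes were lower and 38.8% higher in this way. With the length and GC trend removed Hp was -0.33, the opposite direction, and Saa3, Lcn2 and Cp were -1.64, -1.42 and -1.57. Hp was 1.27 with a pseudocount of 0.1, and Ptx3 and Cp were -4.59 and -1.59 with a pseudocount of 5. Fibroblast markers summed to 973 to 1751 FPKM in 10-day TAC fibroblasts, against 2052 to 2576 FPKM in sedentary fibroblasts. Of these 10 markers, 3 were called higher and 4 lower in limma. Their part in the lower values was not tested.

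**Figure D2:**
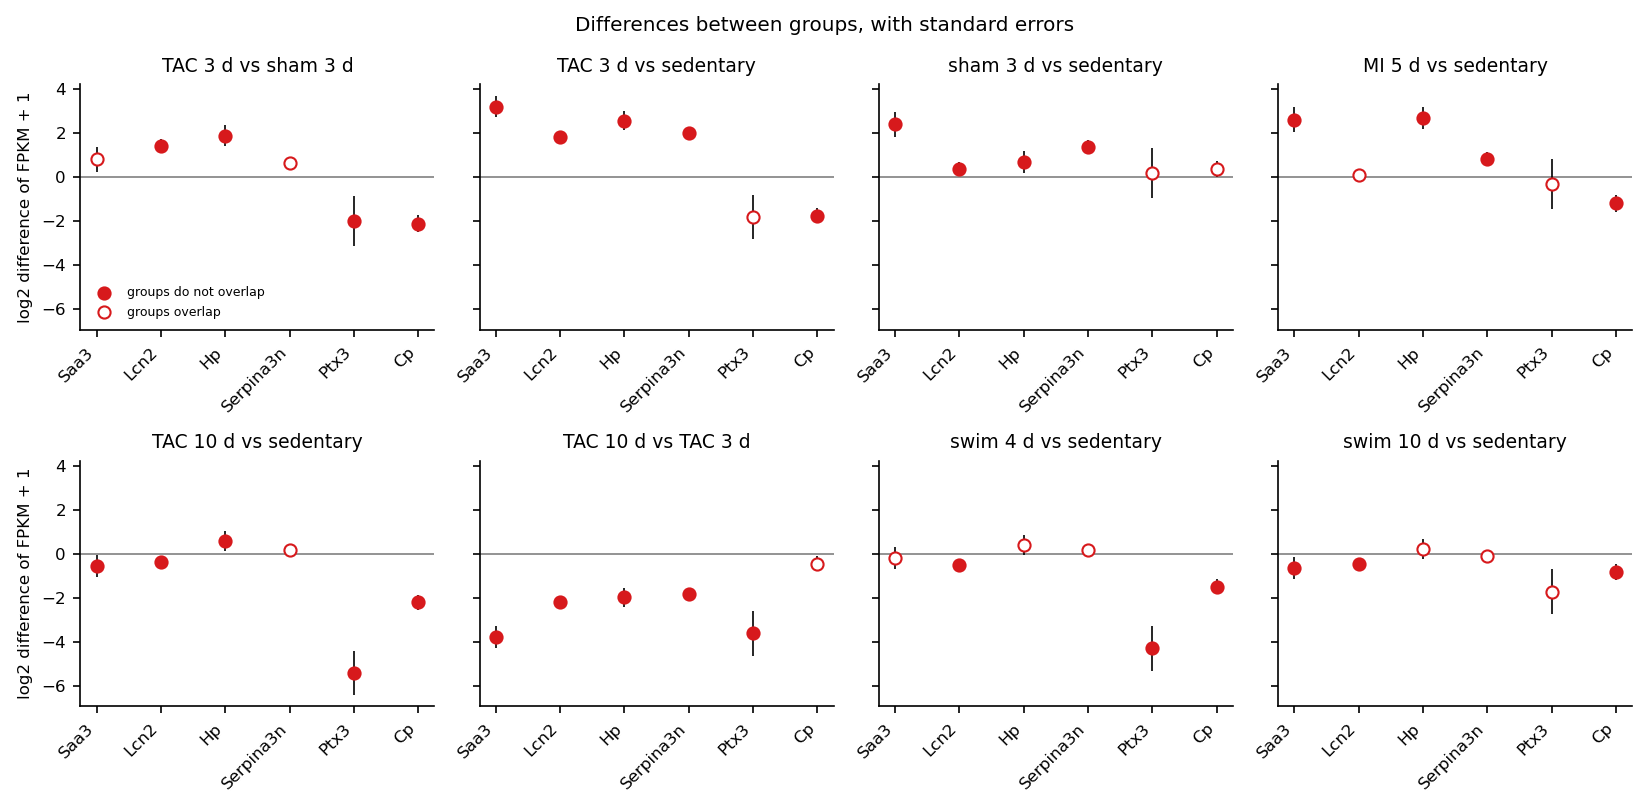
Differences of log2(FPKM + 1) for the 6 genes in 8 comparisons, with standard errors of the fit; filled points mark groups that do not overlap and open points groups that do. Saa3 is at 3.20 in 3-day TAC against sedentary and at -0.57 in 10-day TAC against sedentary, where Ptx3 is at -5.42.

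After MI, Saa3, Hp and Serpina3n were higher in both libraries than in every sedentary library and Cp lower, where 30.4% of all genes were higher and 10.1% lower in this way. The log2 difference was 2.61 ± 0.55 for Saa3, 2.67 ± 0.50 for Hp, 0.83 ± 0.29 for Serpina3n and -1.19 ± 0.38 for Cp, with Lcn2 at 0.08 ± 0.31 and Ptx3 at -0.30 ± 1.13. Without MI replicate 1 Saa3 was 3.33 and Hp 2.03, and without replicate 2 they were 1.90 and 3.31. Pseudocounts of 0.1 and 5 gave 3.22 and 1.56 for Saa3 and 3.99 and 1.29 for Hp. Macrophage and monocyte markers summed to 1071 to 1090 FPKM in MI fibroblasts, against 637 to 847 FPKM in sedentary fibroblasts, and their part in the differences was not tested. Against sham fibroblasts, taken at 3 days, MI libraries were all higher for Hp (1.99 ± 0.54) and all lower for Cp (-1.56 ± 0.42) and Serpina3n (-0.54 ± 0.32), where 28.7% of all genes were higher and 25.0% lower; Saa3 (0.22 ± 0.61) overlapped. This Hp value was 1.36 and 2.63 without MI replicates 1 and 2, and 2.69 and 1.06 with pseudocounts of 0.1 and 5. The titles of both MI libraries carry the same date and those of the sedentary libraries another or none, so MI and that date cannot be told apart.

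Swimming is a model of physiological cardiac growth, and in swim fibroblasts no gene of the first set lay above the sedentary libraries in every library. At 4 days, Lcn2 (-0.53 ± 0.27), Ptx3 (-4.30 ± 1.01) and Cp (-1.49 ± 0.34) were lower in every library than in every sedentary library, where 23.7% of all genes were. At 10 days, Saa3 (-0.64 ± 0.49), Lcn2 (-0.45 ± 0.27) and Cp (-0.83 ± 0.34) were, where 17.6% of all genes were; Ptx3 overlapped at -1.72 ± 1.01 and stood at -0.95 without swim replicate 2. Hp overlapped the sedentary libraries at both times, at 0.40 ± 0.44 and 0.20 ± 0.44. With the length and GC trend removed Lcn2 was -1.70 at 4 days and -1.27 at 10 days, and Saa3 -1.43 and -1.52. Hp was then -0.57 and -0.47, the opposite direction at both times. A pseudocount of 0.1 gave -1.17 for Lcn2 at 4 days and -1.27 for Saa3 at 10 days. The 4-day value of Ptx3 was -3.25 without swim replicate 2, -5.36 without swim replicate 3 and -3.67 with a pseudocount of 5.

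Swim and TAC fibroblasts were also compared with each other. At 4 days of swimming Saa3 (-3.40 ± 0.49), Lcn2 (-2.34 ± 0.27), Hp (-2.17 ± 0.44) and Serpina3n (-1.86 ± 0.26) were lower in every library than in every 3-day TAC library, where 11.3% of all genes were; the times of the groups differ. With pseudocounts of 0.1 and 5 these were -4.18 and -2.14 for Saa3, -3.55 and -1.10 for Lcn2 and -3.09 and -1.12 for Hp, and without 3-day TAC replicate 2 Saa3 was -4.12 and Hp -2.76. At 10 days, swim libraries were all higher for Ptx3 (3.70 ± 1.01, a 13.0-fold difference) and Cp (1.37 ± 0.34) and all lower for Hp (-0.38 ± 0.44) and Serpina3n (-0.28 ± 0.26), where 24.5% of all genes were higher and 25.1% lower. Ptx3 was 4.47 without swim replicate 2 and 2.95 with a pseudocount of 5. The markers of fibroblasts summed to 3095 to 3559 FPKM in 10-day swim fibroblasts, against 973 to 1751 FPKM in 10-day TAC fibroblasts. This sum was higher in every library, as Ptx3 and Cp were, with 5 of the 10 markers called higher and 3 lower in limma. Their part was not tested. Saa3 and Lcn2 overlapped at 10 days, with differences of -0.07 ± 0.49 and -0.08 ± 0.27.

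Cardiomyocytes had little of these transcripts. All 6 genes were lower in every cardiomyocyte library than in every sedentary fibroblast library, where 39.3% of the 10371 genes tested over all 22 libraries were. Serpina3n had 1.48, 1.24 and 0.398 FPKM in cardiomyocytes, and Ptx3 3.43, 0.229 and 0.540 FPKM, with log2 differences of -3.29 ± 0.27 and -6.68 ± 1.01. Cp had 4.00, 4.20 and 3.82 FPKM in cardiomyocytes, with a difference of -2.30 ± 0.32. Pseudocounts of 0.1 and 5 gave -7.84 and -5.09 for Ptx3 and -4.18 and -1.96 for Serpina3n, and a pseudocount of 5 gave -1.68 for Cp. Saa3 (0.0659 to 0.112 FPKM), Lcn2 (0.202 to 0.415 FPKM) and Hp (0.107 to 0.210 FPKM) were all below 1 FPKM. In bulk libraries of either cell type, fewer cells that express a gene and less RNA per cell cannot be told apart.

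Within the 3-day TAC group, replicate 2 was the lowest for Saa3, Lcn2, Hp and Serpina3n and the highest for Ptx3 and Cp. Without it, the log2 difference from sham was 1.53 for Saa3 and 2.48 for Hp, and that from sedentary fibroblasts 3.93 and 3.16. S100a8, a calgranulin abundant in neutrophils, moved alongside: it had 104, 4.25 and 63.9 FPKM in 3-day TAC fibroblasts and 10.1 and 35.4 FPKM in sham fibroblasts, against 1.83, 11.6 and 0.927 FPKM in sedentary fibroblasts. S100a9, its partner, had 22.1, 1.34 and 12.3 FPKM in 3-day TAC fibroblasts, 4.90 and 21.5 FPKM in sham fibroblasts, and 1.75, 7.79 and 0.451 FPKM in sedentary fibroblasts. The 11 measured neutrophil markers summed to 12.5 to 137 FPKM in 3-day TAC, 4.48 to 5.26 FPKM in MI, 14.6 to 40.3 FPKM in 4-day swim, 20.8 to 73.2 FPKM in sham and 7.73 to 26.8 FPKM in sedentary fibroblasts. Retnlg, another of them, had 9.59, 6.23 and 6.60 FPKM in 3-day TAC, 1.95 and 0.596 FPKM in MI, 5.01 and 13.8 FPKM in sham, and 3.54, 6.25 and 17.4 FPKM in sedentary fibroblasts, overlapping between 3-day TAC, sham and sedentary fibroblasts. The other 8 of the 11, among them Ngp, Camp, Ltf, Mpo and Elane, stayed below 1 FPKM in all 19 fibroblast libraries, and Elane was listed at 0 in 16 of them. In MI fibroblasts, where Saa3 and Hp were above all sedentary libraries, S100a8 had 1.23 and 2.01 FPKM. The part of neutrophil RNA in these values was not tested.

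**Figure D3:**
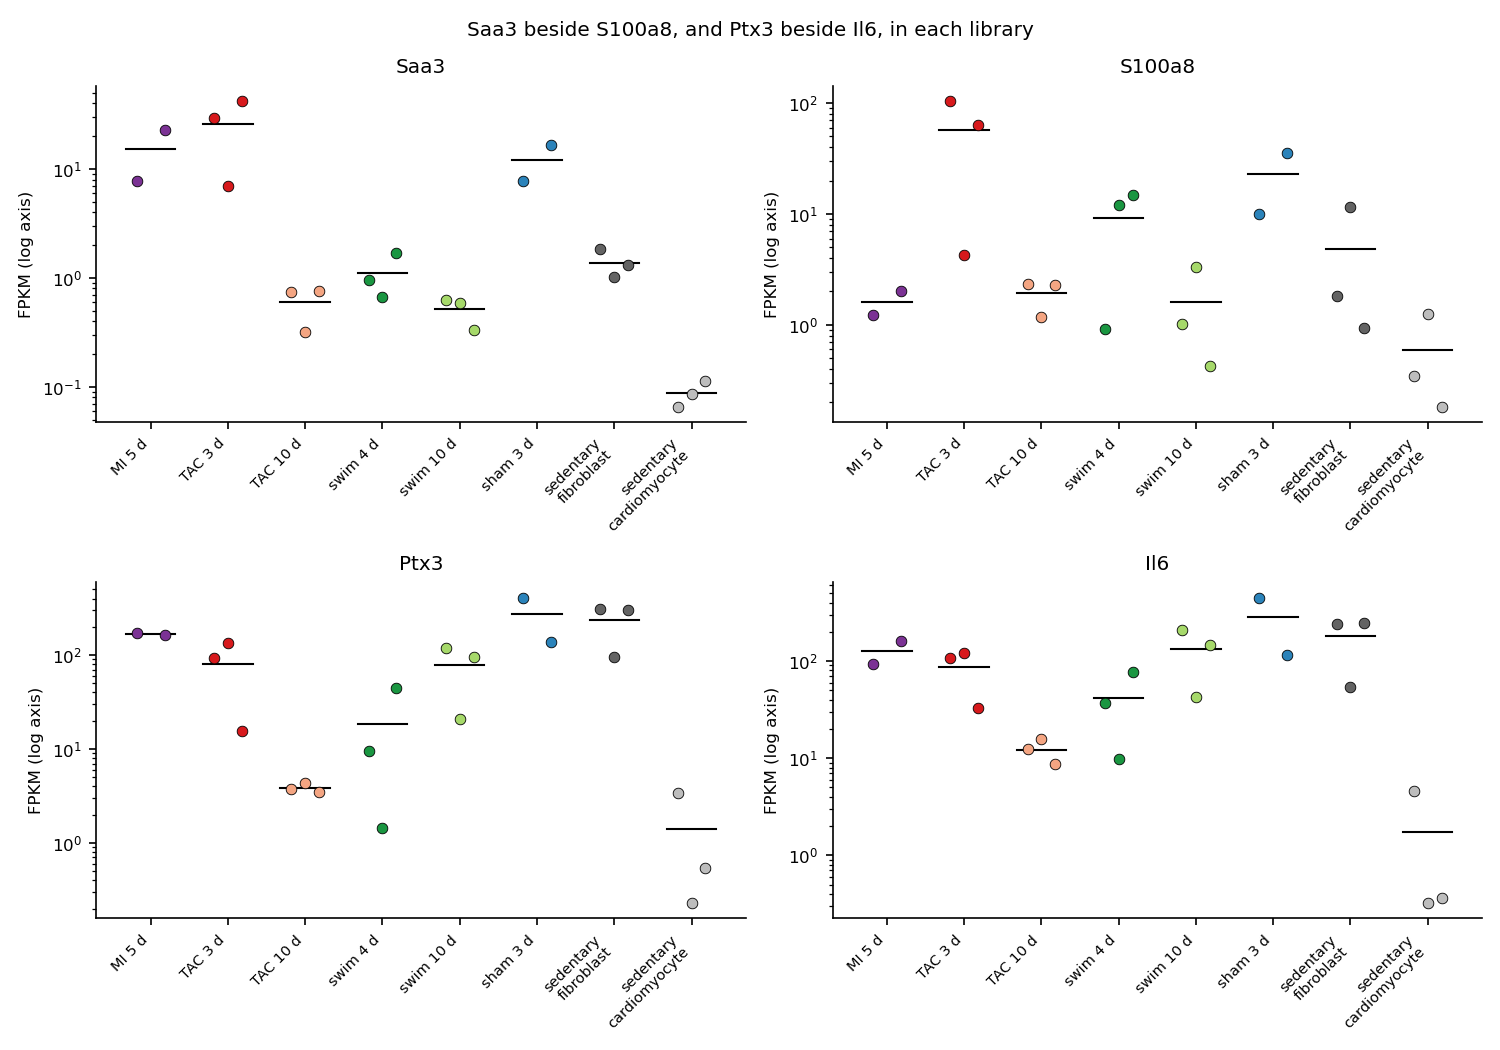
FPKM of Saa3 beside S100a8 and of Ptx3 beside Il6 in each of the 22 libraries, on log axes, with group means as lines. In the 3-day TAC group Saa3 and S100a8 share the same lowest library (6.96 and 4.25 FPKM), whereas in MI libraries Saa3 is at 7.83 and 22.7 FPKM with S100a8 at 1.23 and 2.01 FPKM.

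For each gene, the genes with the most similar profile were sought by Pearson r of log2(FPKM + 1) over the 19 fibroblast libraries, among 3874 named genes with a mean of at least 5 FPKM in some group. Saa3 was closest to Saa1 (r = 0.988), Serpina3f (0.959) and Serpina3g (0.958); Saa1 and Saa2 are close relatives of Saa3, so shared reads cannot be told apart from shared levels. Lcn2 was closest to Serpina3b (0.902), Serpina3n (0.894) and Serpina3c (0.892). Serpina3n was closest to its relatives Serpina3c (0.996), Serpina3j (0.996) and Serpina3m (0.995). Hp was closest to Sirpb1a (0.872), Plac8 (0.866) and Sirpb1b (0.862). Ptx3 was closest to Gclc (0.965), Il6 (0.962) and Vasn (0.957), and Cp to Scn7a (0.976), Fam111a (0.972) and Zfp36l1 (0.964).

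Il6 encodes the main inducer of the hepatic acute phase response, and its lowest library in the sham and in the sedentary group was also that of Ptx3. Il6 had 448 and 115 FPKM in sham fibroblasts, against 242, 54.3 and 247 FPKM in sedentary fibroblasts; sham replicate 2 and sedentary replicate 2 were the lower libraries for both genes. The same libraries were the higher ones of their groups for S100a8. In 10-day TAC fibroblasts Il6 had 12.4, 15.7 and 8.68 FPKM.

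The rest of the pathway was followed in 92 genes in 4 lists: other acute phase genes, the cytokines, receptors and transcription factors that induce them, receptors and binding partners of the proteins, and iron handling. Of these, 65 passed the filter of 1 FPKM in 2 libraries. Among the other acute phase genes 12 of 28 did, and most of those known as liver products, such as Orm1, Crp, Apcs, Fga and Hpx, did not. Genes were called at an adjusted p under 0.05 with limma, and the counts are set beside the share of all genes called in the same comparison. These 4 lists were drawn up when earlier results of the same data were already known. Their counts and medians therefore describe the lists and are no test of them, also where a count exceeds that share. The adjusted p-values below belong to single genes from lists drawn up in this way.

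**Figure D4:**
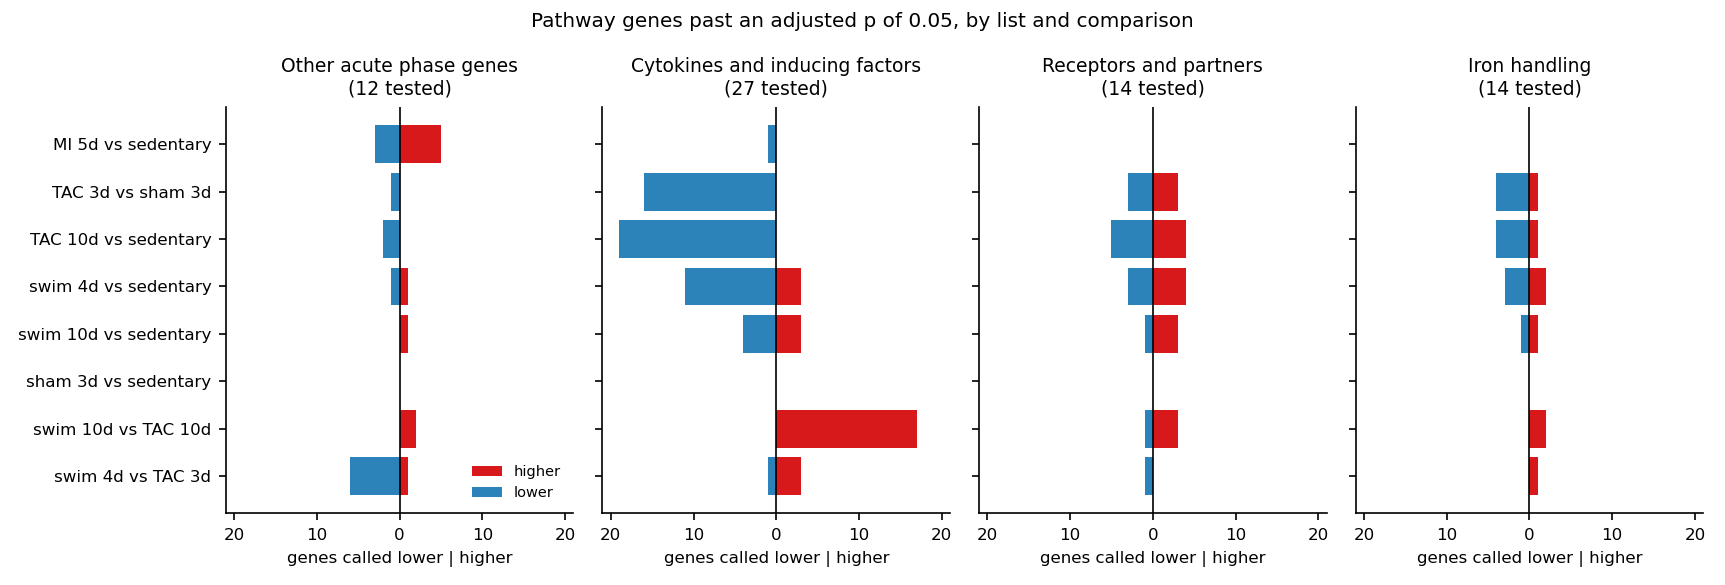
Numbers of pathway genes called higher (right) or lower (left) in 8 comparisons between fibroblast groups, for each of 4 lists; a gene that stands in more than one list is drawn in each. Of the 27 cytokines and inducing factors, 16 were lower in 3-day TAC against sham, 19 were lower in 10-day TAC against sedentary, and 17 were higher in 10-day swim against 10-day TAC.

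In MI fibroblasts against sedentary fibroblasts, 5 of 65 pathway genes rose and 4 fell, where 8.93% of all genes rose and 2.34% fell. Saa1 and Saa2, the hepatic serum amyloids, rose by 1.59 ± 0.43 (adjusted p = 0.0265) and 1.46 ± 0.42 (adjusted p = 0.0341), with means of 3.26 and 2.72 FPKM in MI fibroblasts and 0.337 and 0.281 FPKM in sedentary fibroblasts; with a pseudocount of 5 neither passed (adjusted p = 0.108 and 0.124). The other genes that rose were 3 relatives of Serpina3n. All 5 are close relatives of Saa3 or Serpina3n with an r of 0.979 to 0.988 to them and may share their reads, so these calls are not independent of the 6 chosen genes. Tnf fell by 3.39 (SE 0.51, adjusted p = 0.000267), with 4.81 ± 2.71 FPKM in MI fibroblasts and 59.7 ± 26.5 FPKM in sedentary fibroblasts. Hamp, which encodes the iron hormone hepcidin, fell by 1.22 on the log2 scale (adjusted p = 0.0194) and Serping1, the C1 inhibitor, fell by 0.99 (adjusted p = 0.0309). The calls of Saa1, Saa2, Hamp and Serping1 were all lost without MI replicate 2 (adjusted p of 0.185 to 0.603) and without sedentary replicate 1 (0.0524 to 0.0978). Without sedentary replicate 2 those of Saa1 and Saa2 were lost (0.0531 and 0.0698), and without sedentary replicate 3 those of Saa2 and Serping1 (0.0589 and 0.0523). Hamp was also lost without MI replicate 1 (0.0895) and with a pseudocount of 0.1 (0.146). None of the 14 tested iron handling genes and none of the 14 tested receptors and partners passed in limma; the unadjusted p was under 0.05 for 1 and 4 of them.

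In 3-day TAC fibroblasts against sham fibroblasts, 4 pathway genes rose and 22 fell, where 31.3% of all genes rose and 25.8% fell. The falling genes were mainly those that induce acute phase proteins: 16 of 27 fell and none rose, with a median log2 difference of -1.0 beside 0.05 over all genes. The slope of log2(FPKM + 1) per doubling of transcript length was -0.82 to -0.68 in 3-day TAC and -0.24 to -0.22 in sham fibroblasts. These medians are not matched for length, and the part of length in them was not tested. Tnf fell by 2.79 (adjusted p = 0.000250) and Il1a fell by 2.69 (adjusted p = 0.000338). The IL-6 receptor chain Il6st, which encodes gp130, fell by 1.85 (adjusted p = 0.000345), and the kinases Jak1 and Jak2 fell by 2.40 (adjusted p = 1.32e-05) and 2.46 (adjusted p = 1.43e-05). Lrp1, the endocytic receptor that clears haemopexin with haem, fell by 1.39 (adjusted p = 0.00264), and the transferrin receptor Tfrc fell by 1.52 (adjusted p = 0.000398). Il6 itself had 87.0 ± 47.0 FPKM in 3-day TAC fibroblasts and 281 ± 235 FPKM in sham fibroblasts (SD, adjusted p = 0.164). Without sham replicate 1 the count of pathway genes called was 15 in place of 26. The summed fibroblast markers were lower in every 3-day TAC library too, at 1087 to 1986 FPKM in 3-day TAC fibroblasts and 2533 to 2899 FPKM in sham fibroblasts. Of the 10 markers, 3 were called higher and 3 lower. Their part in the 16 calls was not tested.

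In 10-day TAC fibroblasts against sedentary fibroblasts, 5 pathway genes rose and 29 fell, where 38.8% of all genes rose and 27.0% fell. Of the inducing genes 19 of 27 fell and none rose, with a median of -1.14 beside 0.12 over all genes. The slope per doubling of transcript length was -0.80 to -0.64 in 10-day TAC and -0.31 to -0.18 in sedentary fibroblasts. These medians are likewise not matched for length. Il6 fell by 3.53 (SE 0.84, adjusted p = 0.00202), with 12.2 ± 3.49 FPKM in 10-day TAC fibroblasts and 181 ± 110 FPKM in sedentary fibroblasts. The IL-1 receptor Il1r1 fell by 2.34 (adjusted p = 0.000173), the oncostatin M receptor Osmr fell by 2.25 (adjusted p = 0.000527) and Nfkb1, a subunit of NF-kappaB, fell by 2.25 (adjusted p = 0.00136). Among the partners of PTX3, Tnfaip6, the matrix protein TSG-6 that binds it, fell by 2.91 (adjusted p = 0.000701) and P-selectin (Selp), which it also binds, fell by 3.33 (adjusted p = 0.000252), whereas C1qa, a complement chain it recognises, rose by 2.07 (adjusted p = 1.03e-05). Scarb1, a receptor for serum amyloid A, rose by 1.68 (adjusted p = 3.79e-06). Hmox1, which breaks down haem, fell by 2.56 (adjusted p = 0.00261) and Hamp fell by 1.61 (adjusted p = 0.000158). Fibroblast markers summed to 973 to 1751 FPKM in 10-day TAC fibroblasts and 2052 to 2576 FPKM in sedentary fibroblasts, with 3 of 10 called higher and 4 lower. Endothelial markers summed to 121 to 252 FPKM in 10-day TAC fibroblasts and 64.3 to 94.0 FPKM in sedentary fibroblasts, with 4 of 10 called higher and 2 lower. Macrophage and monocyte markers, C1qa among them, summed to 1089 to 1554 FPKM in 10-day TAC fibroblasts and 637 to 847 FPKM in sedentary fibroblasts, with 4 of 11 called higher and 1 lower. The part of these markers in the differences was not tested.

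In 4-day swim fibroblasts against sedentary fibroblasts, 10 pathway genes rose and 17 fell, where 38.2% of all genes rose and 26.3% fell, and in 10-day swim fibroblasts 8 rose and 6 fell, where 30.0% rose and 13.6% fell. Of the inducing genes, 11 fell and 3 rose at 4 days, and 4 fell and 3 rose at 10 days. Il1r1 fell by 2.18 (adjusted p = 0.000305) and Jak2 fell by 2.16 (adjusted p = 1.07e-05) at 4 days, and Jak1 and Jak2 fell by 1.14 each (adjusted p = 0.00414 and 0.00531) at 10 days. Il6 fell by 2.23 on the log2 scale at 4 days (adjusted p = 0.0297), a call that was lost without swim replicate 2 or sedentary replicate 1 or 3 (adjusted p of 0.0961 to 0.155). Selp fell by 4.60 at 4 days (adjusted p = 1.49e-05) and by 2.68 at 10 days (adjusted p = 0.00276), C1qa rose by 2.86 (adjusted p = 9.51e-07) and 1.94 (adjusted p = 6.93e-05), and the iron reductase Steap3 rose by 1.57 (adjusted p = 6.43e-06) and 1.25 (adjusted p = 0.000171). Hamp fell by 1.49 at 4 days (adjusted p = 0.000288). Macrophage and monocyte markers summed to 1677 to 2073 FPKM in 4-day swim and 1185 to 1395 FPKM in 10-day swim fibroblasts, against 637 to 847 FPKM in sedentary fibroblasts. C1qa is also among these markers, so its rise and this sum are not independent. Markers of endothelial cells, which are known to make P-selectin, summed to 30.2 to 41.3 FPKM in 4-day swim and 44.1 to 68.4 FPKM in 10-day swim fibroblasts, against 64.3 to 94.0 FPKM in sedentary fibroblasts, lower in every library at 4 days. Those of fibroblasts summed to 2447 to 3584 FPKM in 4-day swim and 3095 to 3559 FPKM in 10-day swim fibroblasts, against 2052 to 2576 FPKM in sedentary fibroblasts. Of these 10 markers, 1 was called higher and 2 lower at each time. Mesothelial and epicardial markers summed to 47.5 to 69.8 FPKM and 44.6 to 53.3 FPKM in 4-day and 10-day swim fibroblasts, against 23.2 to 45.5 FPKM in sedentary fibroblasts. That last sum is mainly Tcf21, at 6.94 to 67.3 FPKM over the 19 fibroblast libraries. No other of its 11 markers exceeded 1.62 FPKM, and 7 stayed below 1 FPKM in all 19. The sum therefore follows Tcf21 and is not read as an amount of mesothelial or epicardial cells. The part of all these markers in the differences was not tested.

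In 10-day swim against 10-day TAC fibroblasts, 23 pathway genes rose and 1 fell, where 10.9% of all genes rose and 13.2% fell. Of the inducing genes 17 of 27 rose and none fell, with a median of 0.92 beside 0.02 over all genes. The slope per doubling of transcript length was -0.66 to -0.54 in 10-day swim and -0.80 to -0.64 in 10-day TAC fibroblasts, and the medians are not matched for length. Tnf rose by 2.31 (adjusted p = 0.00220) and Il1a by 2.32 (adjusted p = 0.00217), and Tnfaip6 rose by 3.19 (adjusted p = 0.00209). Il6 was higher by 3.09 ± 0.84 (adjusted p = 0.0175), with 132 ± 83.4 FPKM in swim fibroblasts and 12.2 ± 3.49 FPKM in TAC fibroblasts; the call was lost without 10-day swim replicate 1 (adjusted p = 0.0863), without swim replicate 3 (adjusted p = 0.0701) and without TAC replicate 3 (adjusted p = 0.0666). Hamp rose by 1.38 (adjusted p = 0.00317) and Serping1 by 1.08 (adjusted p = 0.00689), and the gene that fell was Scarb1, which fell by 1.68 (adjusted p = 2.72e-05). Leaving out any of these 3 libraries lowered the number of pathway genes called to 10 in place of 24. Summed fibroblast markers came to 3095 to 3559 FPKM in 10-day swim and 973 to 1751 FPKM in 10-day TAC fibroblasts, mesothelial and epicardial markers to 44.6 to 53.3 FPKM in swim and 21.9 to 26.6 FPKM in TAC fibroblasts, and endothelial markers to 44.1 to 68.4 FPKM in swim and 121 to 252 FPKM in TAC fibroblasts. None of these sums overlapped between the groups. Of the 10 fibroblast markers 5 were called higher and 3 lower, and the mesothelial and epicardial sum is mainly Tcf21, as above. The part of these markers in the 17 calls was not tested.

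In 4-day swim against 3-day TAC fibroblasts, 5 pathway genes rose and 8 fell, where 5.20% of all genes rose and 3.66% fell. The other acute phase genes held 6 of the 8. Saa1 fell by 2.03 (adjusted p = 0.00490) and Saa2 fell by 1.87 (adjusted p = 0.00618). Serpina3f fell by 1.77 (adjusted p = 0.000382), along with 3 further Serpina3 genes. All 6 are close relatives of Saa3 or Serpina3n and may share their reads, so these calls are not independent of the chosen genes. Within the same list Lbp, which encodes the lipopolysaccharide binding protein, rose by 0.66 (adjusted p = 0.0421); it is named after its values were seen, and its call was lost when any single library of either group was left out (adjusted p of 0.0642 to 0.129), with a pseudocount of 0.1 (0.0590) and with no filter on low values (0.0675). Tnf, of the inducing genes, rose by 2.72 (adjusted p = 0.00157). Fibroblast markers summed to 2447 to 3584 FPKM in 4-day swim and 1087 to 1986 FPKM in 3-day TAC fibroblasts, though of these 10 markers 1 was called higher and 2 lower. Macrophage and monocyte markers summed to 1677 to 2073 FPKM in swim and 1184 to 1501 FPKM in TAC fibroblasts. The part of these markers was not tested. Lif, a cytokine that signals through gp130, fell by 2.82 (adjusted p = 0.0345), and the call was lost when any of 3-day TAC replicates 1 and 2 and swim replicates 1 and 2 was left out (adjusted p of 0.0683 to 0.152) and with no filter on low values (0.0512).

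No pathway gene passed in sham against sedentary fibroblasts in limma (0 of 65, with 15 at an unadjusted p under 0.05), and without sham replicate 1 the count was 9, all higher. In cardiomyocytes against sedentary fibroblasts, 1 pathway gene rose and 55 fell, where 38.7% of all genes rose and 38.6% fell. Il6 fell by 6.12 (adjusted p = 9.76e-06), Tnf fell by 4.64 (adjusted p = 9.38e-07), Cd14 fell by 4.23 (adjusted p = 4.38e-08), Serping1 fell by 3.85 (adjusted p = 7.20e-11), Tnfaip6 fell by 5.70 (adjusted p = 1.06e-06) and Hmox1 fell by 6.02 (adjusted p = 5.34e-07). Macrophage and monocyte markers, Cd14 among them, summed to 159 to 302 FPKM in cardiomyocytes and 637 to 847 FPKM in sedentary fibroblasts. Of 11 tested, 10 were called lower. Their part in the differences was not tested.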

How the data were processed

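Per the labels, poly-A RNA of heart cells was extracted with a column kit and made into stranded libraries. Cufflinks 2.0.2 gave the authors' FPKM on mm10, per the submitters' processing notes and the file headers. The aligner, annotation and strand setting of the counting were not given in the sources used here. For each of 22 libraries the deposited FPKM were used as given; no read counts come with them, so the depth behind a value is unknown, and the deposited confidence bounds have a lower bound of 0 for all 132 values of the 6 genes and were not used.

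A linear model of log2(FPKM + 1) was run in limma 3.58.1, with its trend and robust options, in R 4.3.3, for genes at 1 FPKM or more in at least 2 libraries: 9425 genes in one fit of the 19 fibroblast libraries, whose 7 groups share one estimate of the spread, and 10371 genes in a fit of all 22 libraries for cardiomyocytes. P-values were adjusted over all genes tested (Benjamini-Hochberg, threshold 0.05); the fit was checked on simulated data. The members and the gene lists were chosen with earlier results of these data known. The rule for names was all 6 genes, called pathway genes among those with the largest change (at most 6 per list and comparison, at 1 FPKM or more in the higher group), and the 3 genes most like each of the 6. Transcript lengths and GC content are from GENCODE M21 (21698 of 23359 genes); the trend was removed with splines of 4 degrees of freedom. Promoters were found for 5 of the 6 genes. The alternatives were other pseudocounts, other filters, median scaling, the length and GC trend removed, and leaving out each library. Comparisons of 3-day TAC with sedentary, 10-day with 3-day TAC and MI with sham were added after seeing the data. The authors' tables of differential tests were not used here.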

Additional observations from a re-analysis of the deposited data

Results flagged for a closer look

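Saa3 and Lcn2 moved in opposite directions at the 2 times of TAC, each set against the same sedentary fibroblasts. Saa3 was higher in every 3-day TAC library than in every sedentary library, with a log2 difference between the groups of 3.20 ± 0.49 (SE). It was lower in every 10-day TAC library, at -0.57 ± 0.49. Lcn2 was likewise higher in every 3-day TAC library (1.81 ± 0.27) and lower in every 10-day TAC library (-0.38 ± 0.27). The 10-day TAC levels were low, at most 0.754 FPKM for Saa3 and 0.701 FPKM for Lcn2. Levels below every sedentary library were not particular to 10-day TAC. Saa3 was so in 10-day swim fibroblasts (-0.64 ± 0.49), and Lcn2 in 4-day and 10-day swim fibroblasts (-0.53 ± 0.27 and -0.45 ± 0.27). Both genes were also higher in every 3-day sham library than in every sedentary library (2.40 ± 0.55 for Saa3, 0.38 ± 0.31 for Lcn2). For Saa3, 3-day TAC overlapped sham (0.81 ± 0.55). There was no sham group at 10 days, so load and time since the operation cannot be told apart. The difference between the times was not tested against sedentary fibroblasts, since these genes were chosen with their values known. No group has more than 3 libraries, so no library was tested as an outlier.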

How the results depend on the processing

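The count of pathway genes called was within 1.5 times of that reported under both other pseudocounts, a minimum of 5 FPKM, median scaling and the removed length and GC trend, in all 9 comparisons. With no filter on low values it was 15 in 10-day swim against 10-day TAC and 7 in 4-day swim against 3-day TAC. Leaving out each library in turn gave 1 to 7 genes in MI against sedentary, 15 to 31 in 3-day TAC against sham, 7 to 13 in 10-day swim against sedentary, 0 to 9 in sham against sedentary, 10 to 27 in 10-day swim against 10-day TAC and 7 to 11 in 4-day swim against 3-day TAC; the lone library left in a group is assumed to vary like the other groups. Of 53 named pathway results, 8 were lost in some alternative, and each is given above with its value. Among the 6 genes, reversals were counted only where groups did not overlap. There, Hp in 10-day TAC against sedentary reversed, at -0.33 with the length and GC trend removed. Where groups overlapped, Saa3 in 3-day TAC against sham and Hp in both swim groups against sedentary also changed sign with that trend removed. Pseudocounts of 0.1 and 5 moved 22 and 30 of 72 differences by more than the spread between replicates. They turned no direction where groups did not overlap.

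The title numbers shared by MI, sedentary fibroblast and sedentary cardiomyocyte libraries were not shown to pair them: deviations of same-numbered libraries correlated at 0.24, 0.31 and 0.06 between the cell types and at -0.37 between MI and sedentary fibroblasts. With the number as a replicate block, 3 pathway genes were called in MI against sedentary (2 libraries a group) in place of 9, and 52 in cardiomyocytes in place of 56.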
